A study of Mus musculus with 2 samples.

Results

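The genes that drive cells through the division cycle were examined in differentiating 3T3-L1 cells: cyclins and cyclin-dependent kinases (CDKs), the E2F transcription factors with their RB-family partners, the DREAM complex, CDK inhibitors, and the enzymes that switch CDKs on and off. The group and the other gene lists were set by gene symbol, with earlier results of these data known. The group holds 46 genes. Of these, 45 had a probe set annotated to a single gene, out of 18193 genes so represented on the array, and they held 102 probe sets. Ccnb1 was not analysed here.

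3T3-L1 is a mouse embryo fibroblast line, committed to the fat lineage, that turns into adipocytes under a hormone cocktail (dexamethasone, insulin and a phosphodiesterase inhibitor). One culture had received siRNA against Phf21a and the other the control siRNA siGL3, which targets luciferase. Both were induced 24 h after transfection and harvested 24 h after induction, with 10% FBS and 25 mM glucose in the medium, and each gave 1 Affymetrix Mouse Genome 430 2.0 array. Phf21a encodes BHC80, a histone-binding subunit of the LSD1-CoREST corepressor complex. The comparison asks how transcript levels early in adipogenesis differ after Phf21a depletion, and here how the cell cycle genes differ.

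Cyclin D kinases and then cyclin E with CDK2 phosphorylate RB-family proteins, which frees E2F factors to switch on genes for DNA synthesis. In resting cells the RB relatives p107 and p130, with E2F4 or E2F5, a DP partner and the MuvB core (LIN9, LIN37, LIN52, LIN54 and RBBP4), form the repressor complex DREAM. In cycling cells MuvB joins B-MYB and FOXM1 to activate mitotic genes through an element called the CHR. Confluent 3T3-L1 cells divide again soon after induction, a step called mitotic clonal expansion, before they leave the cycle and store fat.

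Values are MAS5 signals, an intensity on a linear scale, and the log2 ratio is Phf21a siRNA over control siRNA. With 1 array in each group there was no replicate error and no test, and the number of arrays limits the precision. Each log2 ratio is therefore given ± a local spread, obtained by dividing by 2 the gap from the 16th to the 84th percentile of log2 ratios among the 1000 detected genes nearest in signal. That scatter holds any true differences as well as noise. Detection required a signal of 51.3, the pooled median, on at least 1 of the arrays. Signals were raised to a floor of 12.9 before log2. All 45 genes were detected on 92 of their 102 probe sets. E2f2 and Lin52 each had 1 signal under the detection limit.

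Phf21a itself was 2.51-fold lower in the Phf21a siRNA culture, with a signal of 306, against 768 in the control culture (log2 ratio -1.33 ± 0.52). Median signals over all probe sets were 49.5 in the Phf21a siRNA array and 53.0 in the control array. Of the preadipocyte and fibroblast markers, 10 of 10 with a probe set were detected, with a summed signal of 55104 in the Phf21a siRNA array and 62441 in the control array. Among them Dlk1, a preadipocyte marker lost in differentiation, was at 5940 with Phf21a siRNA and 12290 with control siRNA (-1.05 ± 0.32). Pdgfrb (0.84 ± 0.42) and Pparg, the master regulator of fat cell formation (0.67 ± 0.53), were higher, and the other 7 were short of 1.5-fold. Endothelial markers were detected in 0 of 4 cases, epithelial ones in 2 of 5 (summed signal 137 with Phf21a siRNA and 208 with control siRNA) and muscle ones in 2 of 4 (99.5 with Phf21a siRNA and 150 with control siRNA). Of the leukocyte markers 6 of 11 were detected, with a summed signal of 1524 in the Phf21a siRNA array, against 889 in the control array. Of those 6, Csf1r, Fcer1g, Cd68 and Cd14 were at least 1.5-fold higher, where 15.2% of all detected genes were. The detected probe sets of Csf1r ran from 0.18 to 1.18. Laptm5 was lower (-1.58 ± 1.26), on dim signals of 22.3 with Phf21a siRNA and 66.4 with control siRNA. Fcer1g was also dim, at 54.4 with Phf21a siRNA and 25.7 with control siRNA, and stayed within its local spread (1.08 ± 1.26). Cd68 was at 119 with Phf21a siRNA and 64.0 with control siRNA (0.89 ± 0.71). The leukocyte genes Ptprc, Tyrobp, Cd52, Itgam and Adgre1 were undetected in both, and the part of these markers in the results was not tested. Poly-A control RNAs, added during labelling, were higher in the Phf21a siRNA array by a median log2 ratio of 0.73 over 24 probe sets, and hybridisation controls by 0.23 over 18. Scaling to them lowers the median of all detected genes to -0.70 and -0.20, so the ratios here are relative to the bulk of the transcriptome, whose median was 0.03.

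Most of the division genes had a lower signal in the Phf21a siRNA culture. Of the 45 genes, 9 were at least 1.5-fold lower (13.9% of all 11301 detected genes were) and 5 at least 1.5-fold higher (15.2% of all detected genes were). The 9 were E2f4, Cdk6, Mybl2, Cdc25c, Ccnd3, Ccnf, Rbl1, Ccne1 and Cdc25a, and the 5 were E2f2, Cdkn3, Lin37, Cdkn2b and Rbl2. At 2-fold, 3 members were lower and 0 higher, against backgrounds of 5.47% and 5.72%. At 3-fold the lower genes were E2f4 and Cdk6, 2 of 45, where 1.87% of all detected genes were lower and 1.68% higher. The median log2 ratio of the 45 genes was -0.28, with 28 below 0, whereas 47.8% of all detected genes were below 0. By probe set, 22 of the 92 detected were at least 1.5-fold lower and 6 higher, beside 16.1% and 14.2% of all detected probe sets. A bulk RNA sample cannot tell fewer dividing cells apart from less of these transcripts in each cell. Neither count at 1.5-fold was far from its background.

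**Figure D1:**
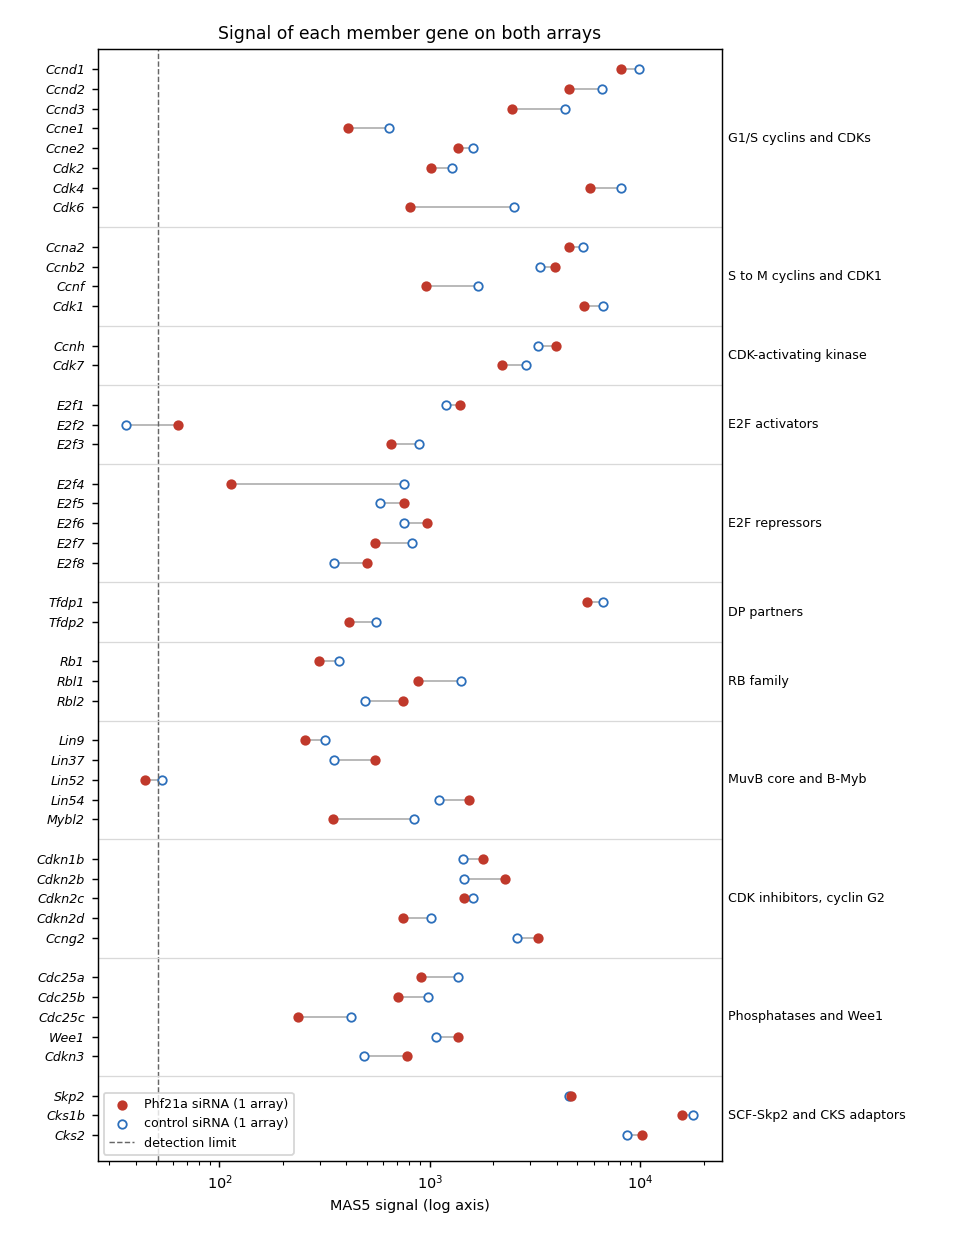
MAS5 signal (log axis) of the 45 member genes, each on its shown probe set, in the Phf21a siRNA array (filled) and the control siRNA array (open), 1 array each, grouped by role; the dashed line is the detection limit of 51.3. The widest gaps are those of E2f4 (113 and 755) and Cdk6 (806 and 2518), while E2f2 and Lin52 straddle the limit.

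**Figure D2:**
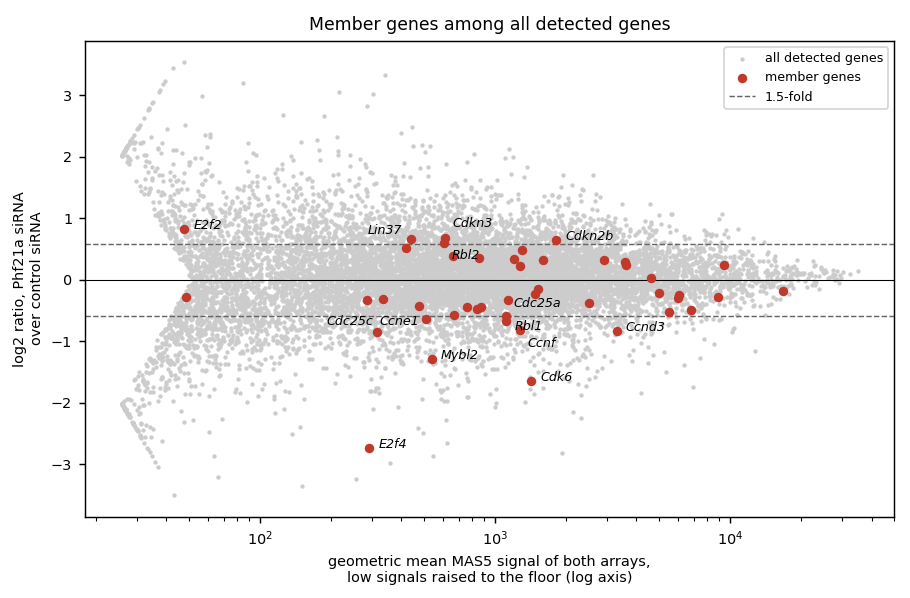
Log2 ratio (Phf21a siRNA over control siRNA) against the geometric mean signal of both arrays (log axis) for all 11301 detected genes in grey and the 45 members in red; dashed lines mark 1.5-fold and members past it are named. E2f4 and Cdk6 stand lowest at -2.74 and -1.64, and the scatter of the grey points widens towards low signal.

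Of the 8 G1/S cyclins and kinases, Cdk6, Ccnd3 and Ccne1 were at least 1.5-fold lower, and Cdk6 was the furthest from 0. Cdk6 (Entrez gene 12571) encodes a kinase that cyclin D activates to start phosphorylation of RB. Its signal was 806 in the Phf21a siRNA array, against 2518 in the control array, which is 3.12-fold lower (log2 ratio -1.64 ± 0.47). The other probe sets of Cdk6 had 494 and 83.4 with Phf21a siRNA, against 1571 and 243 with control siRNA, so all 3 lay between -1.67 and -1.54. Cdk4, which encodes the sister kinase, was at 5761 in the Phf21a siRNA array and 8112 in the control array (-0.49 ± 0.33), and its 3 probe sets ran from -0.49 to -0.30. The ratios of these kinases thus differed by more than their local spreads, although no test of that difference is possible here.

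Among the D-type cyclins, the regulatory partners of CDK4 and CDK6, Ccnd3 was the lowest. Ccnd3, whose product is known to favour fat cell differentiation, had 2462 with Phf21a siRNA and 4404 with control siRNA (1.79-fold lower, -0.84 ± 0.40), and a second probe set gave -0.70. Ccnd2 had signals of 4573 in the Phf21a siRNA array and 6573 in the control array (-0.52 ± 0.34). Its 7 probe sets all lay below 0, between -0.66 and -0.36, and 2 of them were past 1.5-fold while the brightest was not. Ccnd1, the cyclin most directly tied to growth factor signals, had 8074 with Phf21a siRNA and 9818 with control siRNA (-0.28 ± 0.31), and its 3 probe sets lay between -0.28 and -0.19.

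In the cyclin E step Ccne1 alone passed 1.5-fold. Ccne1, encoding cyclin E1, had 408 in the Phf21a siRNA array against 638 in the control array (1.57-fold lower, -0.65 ± 0.52), and its second probe set was lower too at -0.89. Ccne2, encoding cyclin E2, was at 1362 with Phf21a siRNA and 1608 with control siRNA (-0.24 ± 0.47). Cdk2, the kinase both cyclins activate, was at 1013 with Phf21a siRNA and 1272 with control siRNA (-0.33 ± 0.46). Neither Ccne2 nor Cdk2 left its local spread. Over these 8 genes the median was -0.51, and 3 were lower and 0 higher by at least 1.5-fold, where 13.9% and 15.2% of all detected genes were. All 22 of their detected probe sets were below 0, against 50.4% of all detected probe sets, but probe sets of 1 gene read the same RNA and are not separate observations. The 8 genes were below 0 and below the median of all genes under each of 12 processing alternatives, except that leaving out suffixed probe sets kept only 7 of them.

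The promoter window of Cdk6 is shown because it is the gene of this group with the largest difference. It spans 250 bases before to 50 bases after the annotated start (RefSeq, GRCm38.p6, chr5:3343643-3343942, plus strand). Windows were available for 35 of the 46 genes, 43 windows in all, and were searched on both strands for the E2F words TTTCCCGC, TTTCGCGC, TTTGCCGC and TTTGGCGC, the CHR words TTTGAA and TTTAAA, and the CCAAT box CCAAT. Matches are in capitals in each sequence printed here, and the Cdk6 window held none of these words.
Cdk6: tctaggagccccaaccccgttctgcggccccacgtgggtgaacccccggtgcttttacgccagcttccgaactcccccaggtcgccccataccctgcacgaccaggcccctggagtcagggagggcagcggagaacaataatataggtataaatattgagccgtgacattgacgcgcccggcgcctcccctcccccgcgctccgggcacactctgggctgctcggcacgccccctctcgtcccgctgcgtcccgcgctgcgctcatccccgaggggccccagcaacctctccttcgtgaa

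**Figure D3:**
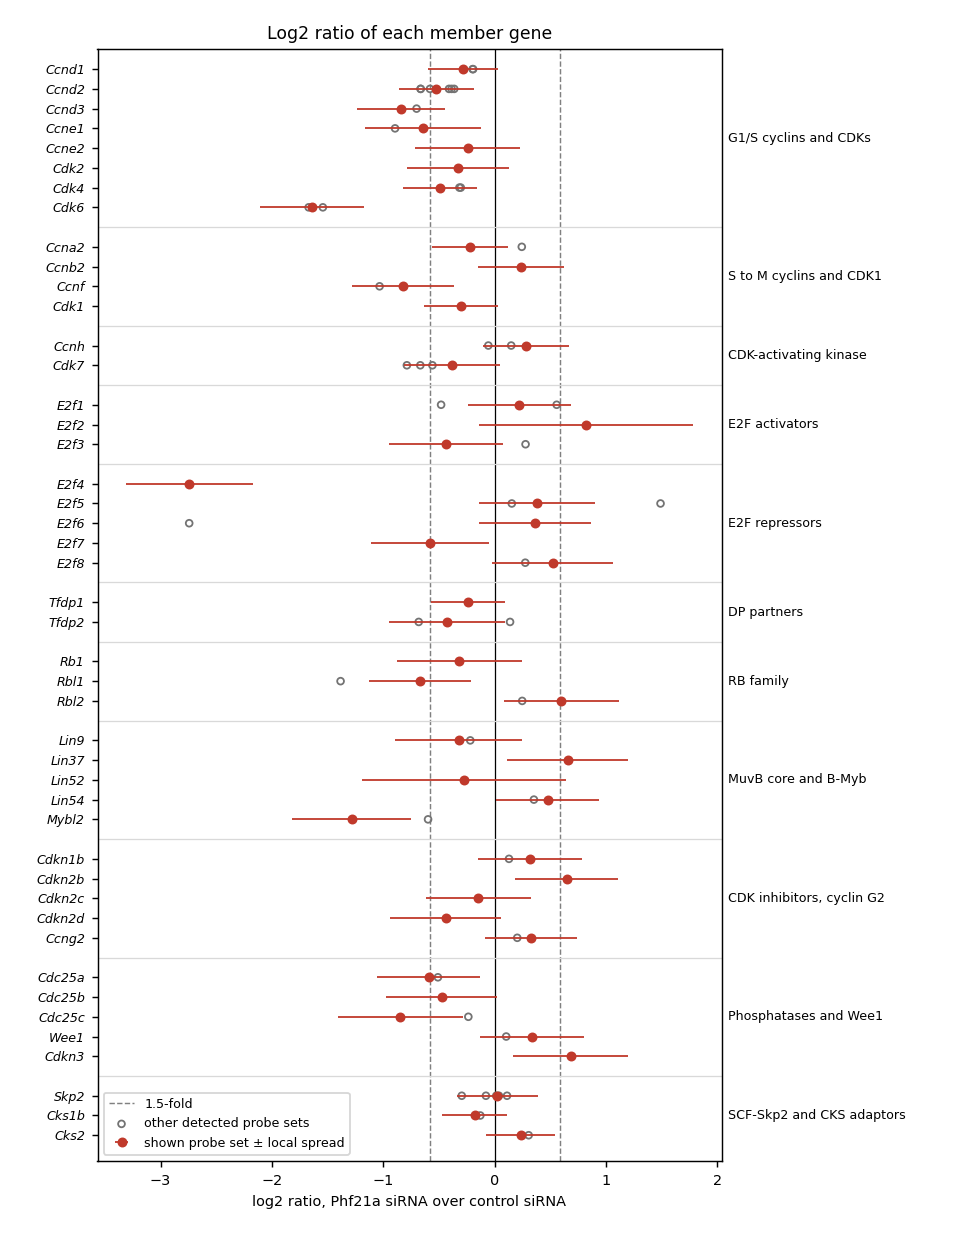
Log2 ratio (Phf21a siRNA over control siRNA) of the 45 member genes by role: filled points with bars are the shown probe set ± its local spread, open points the other detected probe sets, and dashed lines mark 1.5-fold. All points of the G1/S cyclins and CDKs lie left of 0, the 3 of Cdk6 lie together, and E2f6 has a second, dim probe set far from its first.

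Cyclins of S phase and mitosis differed less. Ccna2, encoding cyclin A2, had 4608 in the Phf21a siRNA array and 5371 in the control array (-0.22 ± 0.34), and its second probe set went the other way at 0.24. Ccnb2, encoding cyclin B2, was at 3924 with Phf21a siRNA and 3327 with control siRNA (0.24 ± 0.39). Cdk1, the kinase that drives mitosis, was at 5414 with Phf21a siRNA and 6666 with control siRNA (-0.30 ± 0.33). None of these 3 genes left its local spread. The exception was Ccnf, cyclin F, which binds no CDK and acts as the substrate receptor of an SCF ubiquitin ligase. It had 959 in the Phf21a siRNA array, against 1698 in the control array (1.77-fold lower, -0.82 ± 0.46), with a second probe set at -1.03. The median over the 4 measured genes was -0.26, and -0.51 in the G1/S group, a difference in medians that was not tested.

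Windows of Ccnf and Cdk1 are shown as a pair with CHR and CCAAT words, of which only Ccnf passed 1.5-fold. The intervals given by their local spreads (-0.82 ± 0.46 and -0.30 ± 0.33) overlap. Ccnf (chr17:24251360-24251659, minus strand) had TTTGAA at 130 and 14 bases before the start site, and Cdk1 (chr10:69352863-69353162, minus strand) had it at 71 and 15 bases before, beside an E2F word at 131 bases before.
Ccnf: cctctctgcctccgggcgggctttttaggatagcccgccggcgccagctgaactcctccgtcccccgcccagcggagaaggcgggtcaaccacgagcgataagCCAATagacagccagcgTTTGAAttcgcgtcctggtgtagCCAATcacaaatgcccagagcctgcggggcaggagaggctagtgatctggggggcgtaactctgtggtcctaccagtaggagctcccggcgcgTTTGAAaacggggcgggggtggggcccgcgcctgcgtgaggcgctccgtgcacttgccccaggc
Cdk1: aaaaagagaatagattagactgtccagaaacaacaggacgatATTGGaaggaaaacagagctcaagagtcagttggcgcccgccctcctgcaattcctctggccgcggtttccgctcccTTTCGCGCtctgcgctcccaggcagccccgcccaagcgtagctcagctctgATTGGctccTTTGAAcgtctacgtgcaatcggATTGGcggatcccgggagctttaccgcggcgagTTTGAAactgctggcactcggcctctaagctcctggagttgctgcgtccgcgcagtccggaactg

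The CDK-activating kinase phosphorylates CDKs on their activation loop and is also part of the transcription factor TFIIH. Both measured subunits stayed within their local spread on the shown probe set. Ccnh had 3956 in the Phf21a siRNA array and 3250 in the control array (0.28 ± 0.39), and its 3 probe sets spanned -0.06 to 0.28. Cdk7 was at 2207 with Phf21a siRNA and 2875 with control siRNA (-0.38 ± 0.43). Its 4 detected probe sets were all below 0, and 2 dim ones were past 1.5-fold at -0.67 and -0.79. The mean over the 4 was -0.60, which is past 1.5-fold.

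E2f4 showed the largest difference of the 45 genes. E2F4 (Entrez gene 104394) is the main E2F of the DREAM repressor, and in 3T3-L1 cells it is known to repress Pparg. Its signal was 113 in the Phf21a siRNA array against 755 in the control array, 6.69-fold lower (log2 ratio -2.74 ± 0.57). Both signals were above the detection limit. The gene has 1 probe set on this array, so no second probe set bears on the value, and it lay between -3.47 and -2.72 over the processing alternatives.

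On their shown probe sets the other repressor E2Fs had no difference of that size. E2f5, which like E2f4 pairs with p107 and p130, had 755 in the Phf21a siRNA array and 580 in the control array (0.38 ± 0.52), with further probe sets at 0.15 and 1.49. E2f6, which represses without RB proteins as part of a Polycomb-type complex, had 972 with Phf21a siRNA and 757 with control siRNA (0.36 ± 0.50). Its dim second probe set had 12.7 with Phf21a siRNA, under the floor, and 86.1 with control siRNA. With the first raised to the floor the ratio was -2.74, so the probe sets of E2f6 disagree. E2f7 and E2f8, atypical E2Fs that bind DNA without a DP partner and shut down E2F targets late in S phase, went opposite ways. E2f7 was at 548 in the Phf21a siRNA array and 819 in the control array (-0.58 ± 0.53), just short of 1.5-fold. E2f8 was at 501 with Phf21a siRNA and 350 with control siRNA (0.52 ± 0.55). The median of the 5 repressors was 0.36 and their mean -0.41, so the sign depended on the summary, and averaging probe sets turned the median to -0.58.

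Activator E2Fs, which switch on S-phase genes, stayed within their local spreads. E2f1 had 1385 in the Phf21a siRNA array and 1188 in the control array (0.22 ± 0.46), with other probe sets at 0.56 and -0.48. E2f3 was at 653 with Phf21a siRNA and 883 with control siRNA (-0.44 ± 0.51), and its second probe set at 0.28 reversed the sign. E2f2 was past 1.5-fold at 0.82 ± 0.96, but on signals of 63.4 with Phf21a siRNA and 35.9 with control siRNA, the second under the detection limit. With both raised to that limit E2f2 was at 0.31, so its count among the higher genes rests on a dim signal.

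The DP proteins, obligate partners of E2F1 to E2F6, stayed within their local spreads. Tfdp1 had 5600 in the Phf21a siRNA array and 6627 in the control array (-0.24 ± 0.33). Tfdp2 had 411 with Phf21a siRNA and 552 with control siRNA (-0.43 ± 0.52), with 3 detected probe sets from -0.68 to 0.14.

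The RB family split. Rbl1, which encodes p107, the family member that rises as cells cycle, had 881 in the Phf21a siRNA array against 1406 in the control array (1.60-fold lower, -0.67 ± 0.46). A dimmer probe set of Rbl1 had 97.3 with Phf21a siRNA and 254 with control siRNA (-1.38). Rbl2, which encodes p130, the member that dominates in resting and differentiating cells, had 748 in the Phf21a siRNA array and 494 in the control array (1.52-fold higher, 0.60 ± 0.52). Its second probe set gave 0.25, and its ratio was -0.13 under poly-A scaling. Rb1, the retinoblastoma gene, was at 298 with Phf21a siRNA and 371 with control siRNA (-0.32 ± 0.56), within its spread. The intervals of Rbl1 and Rbl2 given by their local spreads do not overlap.

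The windows of this pair are shown because the genes are close relatives with opposite ratios. Rbl1 (chr2:157204485-157204784, minus strand) held an E2F word at 18 bases before the start site. Rbl2 (chr8:91069807-91070106, plus strand) held none, but had CHR words at 201 and 158 bases before.
Rbl1: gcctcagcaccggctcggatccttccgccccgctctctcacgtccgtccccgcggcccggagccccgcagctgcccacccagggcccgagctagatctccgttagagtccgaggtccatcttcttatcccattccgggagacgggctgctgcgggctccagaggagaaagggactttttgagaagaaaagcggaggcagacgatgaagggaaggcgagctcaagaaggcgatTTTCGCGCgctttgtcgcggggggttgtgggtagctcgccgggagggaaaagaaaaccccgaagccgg
Rbl2: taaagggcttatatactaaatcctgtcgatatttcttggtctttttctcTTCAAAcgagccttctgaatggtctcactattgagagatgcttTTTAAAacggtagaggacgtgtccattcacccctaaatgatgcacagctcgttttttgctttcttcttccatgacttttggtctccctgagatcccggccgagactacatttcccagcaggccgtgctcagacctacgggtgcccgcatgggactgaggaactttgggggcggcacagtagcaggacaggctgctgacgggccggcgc

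Members of the MuvB core ran from lower to higher, and B-Myb stood apart from them. Mybl2, which encodes B-MYB and is itself a classical E2F target, had 345 in the Phf21a siRNA array against 840 in the control array (Entrez gene 17865, 2.44-fold lower, -1.29 ± 0.53). Its dimmer probe set had 88.6 with Phf21a siRNA and 134 with control siRNA (-0.60). Lin37, needed for repression by DREAM, had 551 with Phf21a siRNA and 350 with control siRNA (1.58-fold higher, 0.66 ± 0.54) on its only probe set, and -0.069 under poly-A scaling. Lin54, the subunit that contacts the CHR, was at 1538 in the Phf21a siRNA array and 1106 in the control array (0.48 ± 0.46), with a dim second probe set at 0.35. Lin9 was at 254 with Phf21a siRNA and 318 with control siRNA (-0.32 ± 0.57). Lin52, whose phosphorylation assembles DREAM, was near the limit at 44.2 with Phf21a siRNA and 53.5 with control siRNA (-0.28 ± 0.92). Over the 10 DREAM components (E2f4, E2f5, Rbl1, Rbl2, both DP genes and the 4 LIN genes), 2 were lower and 2 higher by at least 1.5-fold, beside 13.9% and 15.2% of all detected genes. Their median was -0.26 and values ran from -2.74 to 0.66.

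Of the CDK inhibitors among the members, 1 passed 1.5-fold. Cdkn1a (p21), outside the member list, passed it as well (0.82 ± 0.40). Cdkn2b, encoding the CDK4 and CDK6 inhibitor p15, had 2284 in the Phf21a siRNA array against 1459 in the control array (1.56-fold higher, 0.65 ± 0.46) on its only probe set, and was at -0.079 under poly-A scaling. The related Cdkn2c (p18) was at 1452 with Phf21a siRNA and 1610 with control siRNA (-0.15 ± 0.47). Cdkn2d (p19) was at 745 with Phf21a siRNA and 1011 with control siRNA (-0.44 ± 0.50). Cdkn2c and Cdkn2d stayed within their local spreads, as did Cdkn1b and Ccng2 below, so no direction is given for any of them. Cdkn1b, encoding p27, which inhibits cyclin E-CDK2, had 1784 in the Phf21a siRNA array and 1432 in the control array (0.32 ± 0.47). Ccng2, an atypical cyclin that holds back division, had 3250 with Phf21a siRNA and 2598 with control siRNA (0.32 ± 0.41). The median of the 5 member genes was 0.32, but -0.41 under poly-A scaling, and only 1 of the 5 was beyond its local spread. Of the 5, 1 was at least 1.5-fold higher and 0 lower, beside 15.2% and 13.9% of all detected genes.

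The CDC25 phosphatases, which remove inhibitory phosphates from CDKs, passed 1.5-fold in Cdc25a and Cdc25c. Cdc25a, which acts at G1/S, had 906 in the Phf21a siRNA array against 1367 in the control array (1.51-fold lower, -0.59 ± 0.46), with a second probe set at -0.51. Cdc25b, which starts mitotic entry, was at 708 with Phf21a siRNA and 984 with control siRNA (-0.48 ± 0.50), within its spread. Cdc25c had 235 in the Phf21a siRNA array and 422 in the control array (1.80-fold lower, -0.85 ± 0.56), but -0.24 on the other probe set. Wee1, the kinase that adds those phosphates, was at 1355 with Phf21a siRNA and 1073 with control siRNA (0.34 ± 0.47). Cdkn3, a phosphatase that acts on CDK1 and CDK2, had 779 with Phf21a siRNA and 486 with control siRNA (1.60-fold higher, 0.68 ± 0.51) and was at -0.043 under poly-A scaling.

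The window of Cdc25a (chr9:109875329-109875628, plus strand) is shown as a gene lower in the Phf21a siRNA array that held an E2F word, 67 bases before the start site, with CCAAT boxes on the other strand upstream of it.
Cdc25a: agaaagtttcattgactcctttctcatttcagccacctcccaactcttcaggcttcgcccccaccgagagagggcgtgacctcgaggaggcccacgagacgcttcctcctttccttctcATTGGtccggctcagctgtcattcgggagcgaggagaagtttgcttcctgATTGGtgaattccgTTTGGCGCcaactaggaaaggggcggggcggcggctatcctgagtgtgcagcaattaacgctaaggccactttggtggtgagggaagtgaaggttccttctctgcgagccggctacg

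The SCF-Skp2 ligase parts, which target p27 for destruction, stayed within their local spreads. Skp2, the F-box subunit, had 4663 in the Phf21a siRNA array and 4587 in the control array (0.02 ± 0.36), and its 6 probe sets ran from -0.30 to 0.11. Cks1b, the adaptor that Skp2 needs to bind p27, had 15744 with Phf21a siRNA and 17841 with control siRNA (-0.18 ± 0.29). Cks2, its paralogue, was at 10181 with Phf21a siRNA and 8657 with control siRNA (0.23 ± 0.31).

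Across the promoter windows, 10 of the 43 (23.3%) held an E2F word, against 2.26% of the 32851 windows in the table. Both windows of Tfdp1 overlap and hold the same E2F word, which is thus counted in each. CHR words were in 20 of 43 (46.5%) and 27.6% of all windows, and CCAAT boxes in 53.5% and 37.4%. Base composition differed as well, with a median GC content of 63.7% in the members' windows and 52.7% in all windows. Split by ratio, 2 of 8 windows of genes at least 1.5-fold lower held an E2F word, as did 1 of 6 windows of genes at least 1.5-fold higher and 7 of 28 of those in between. CHR words were in 2 of 8, 5 of 6 and 12 of 28 of the same windows. Median GC content differed between these sets too, at 65.2%, 57% and 64.2% in the same order. The 6 higher windows came from 5 genes, among them the dim E2f2. The 8 lower windows came from 7 genes, since E2f4 and Cdc25c had no window and Ccnd3 had more than 1. The window left over is that of Ccnb1, which has no ratio here. These are matches of letters in short windows, with 0 overlaps between matches in the members' windows, and no test was made.

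Known targets of the E2F and CHR switch outside the member list had smaller differences than Cdk6 or E2f4, the members furthest from 0. Of 30 detected E2F target genes for DNA synthesis, 4 were lower by at least 1.5-fold, about the 13.9% of all detected genes, and 1 was higher, against 15.2%. Their median was -0.23 and 25 were below 0, as were 47.8% of all detected genes. The lowest was Ung, a uracil glycosylase, with 282 in the Phf21a siRNA array against 659 in the control array (-1.22 ± 0.54), followed by Rrm1 (-0.88 ± 0.36), Mcm5 (-0.76 ± 0.39) and Rrm2 (-0.68 ± 0.34). Of 29 detected mitotic genes with CHR control, 1 was lower and 0 were higher by at least 1.5-fold, beside the same 13.9% and 15.2%, and the median was -0.08. That 1 was Aurkb, the Aurora B kinase, at -1.07 ± 0.51, and the next furthest were Nusap1 at 0.54 ± 0.43 and Plk1 at -0.49 ± 0.45. Of 13 other cyclins, CDKs and inhibitors, 1 was higher and 0 lower (median -0.07). It was Cdkn1a, encoding the CDK inhibitor p21, at 0.82 ± 0.40. Among 15 further regulators, Rbx1 and Fbxw7, both parts of SCF ligases, were higher at 0.94 ± 0.77 and 0.71 ± 0.51, and 0 were lower (median -0.0036). Rbx1 had 78.3 with Phf21a siRNA and 40.8 with control siRNA, the second under the detection limit.

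**Figure D4:**
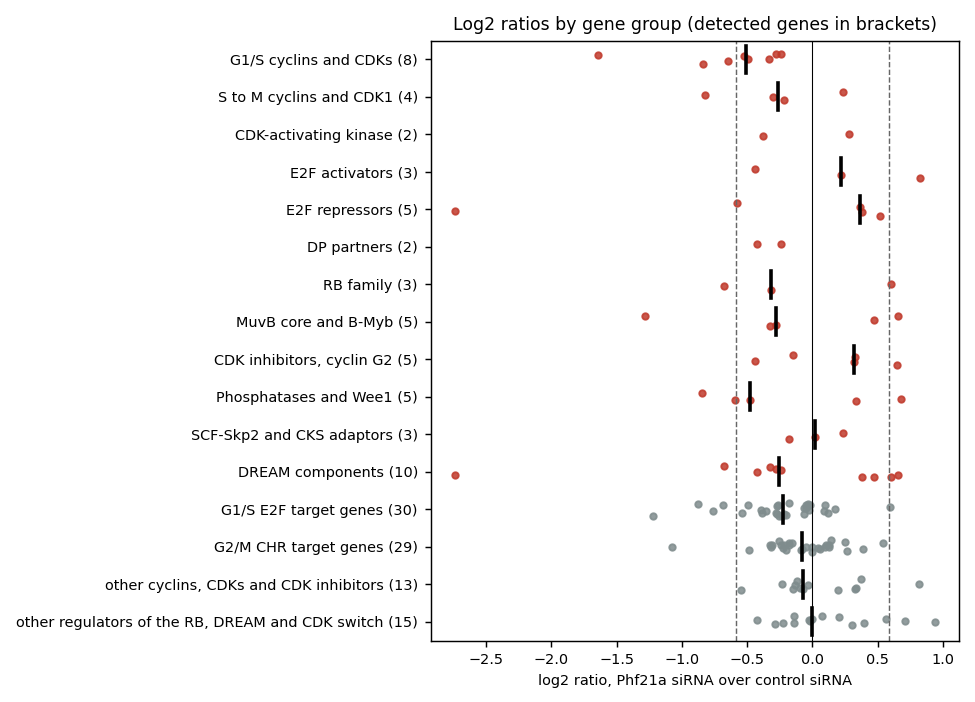
Log2 ratio (Phf21a siRNA over control siRNA) of each detected gene in the groups of member genes (red) and in the lists of other cell cycle genes (grey); points are spread vertically for view, black bars are medians of groups with at least 3 genes, and dashed lines mark 1.5-fold. The G1/S group has its median at -0.51 with no gene above 0, and the mitotic targets centre on -0.08.

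Of the 29 member genes with more than 1 detected probe set, 22 had all of them on the same side of 0 (75.9%), as did 61.4% of 5597 such genes on the whole array. Genes whose detected probe sets were all past 1.5-fold numbered 7 lower and 4 higher among the 45, against 10.9% and 11.3% of all detected genes. The 4 higher genes (E2f2, Cdkn3, Lin37 and Cdkn2b) and E2f4 had only 1 detected probe set each. For them the count shows no agreement between probe sets. Each of E2f4, Cdk6, Mybl2, Ccnd3, Ccnf, Rbl1 and Ccne1 was at least 1.5-fold lower in the reported values and in all 12 alternatives. Cdc25a missed 1.5-fold in 1 of the 12, and Cdc25c, which 2 of them left out, missed it in 2 of the other 10. Rbl2 was at least 1.5-fold higher in 5 of the 11 alternatives that gave it a value and missed it under median centring (0.57), loess (0.58), both control scalings and both summaries over probe sets (0.42). Lin37 (9 of 11), Cdkn2b and Cdkn3 (10 of 12 each) missed it under poly-A and hybridisation scaling, and E2f2 (9 of 11) under poly-A scaling and the higher floor.

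**Figure D5:**
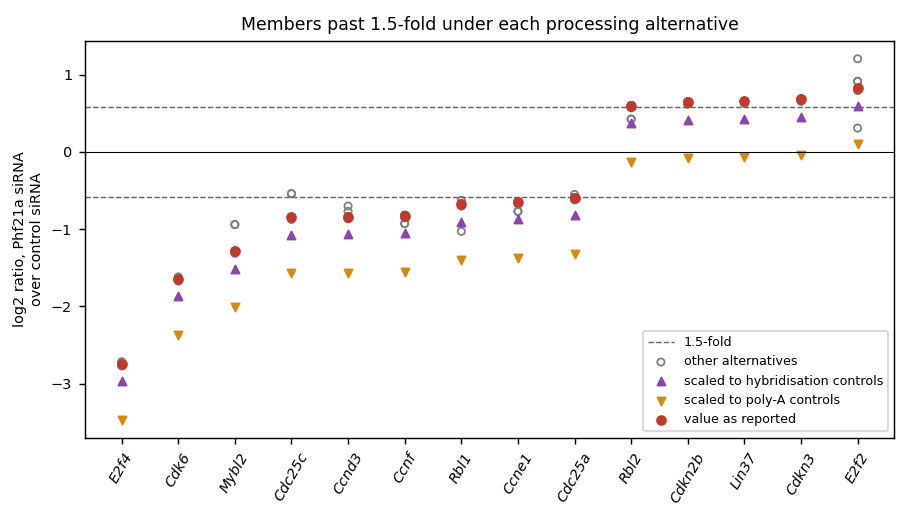
Log2 ratio (Phf21a siRNA over control siRNA) of the 14 members past 1.5-fold as reported (red) and under each processing alternative; triangles are scalings to control RNAs and dashed lines mark 1.5-fold. The lower genes stay below 0 under every alternative drawn, whereas poly-A scaling puts Rbl2, Lin37, Cdkn2b and Cdkn3 just below 0.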

How the data were processed

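The deposited values are MAS5 signal intensity on a linear scale, 1 array in each of 2 groups; the authors used MAS5 per the submitters' processing notes (version not given in the sources used here). Trimming 2% of probe sets at each end gave a mean of 500 on either array, so a change in total messenger RNA per cell cannot be seen. The array's annotation gives 1 gene for 34945 of the 45101 probe sets, several for 932 and none for 9160, besides 64 controls. Entrez numbers tied 34741 of the 34945 to RefSeq, with 0 symbols altered.

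A gene was shown by the detected probe set with the highest mean signal, with _x_at probe sets used only for want of another. Detection was at the pooled median (51.3), the floor at the pooled 25th percentile (12.9). Counts are of genes that differ by 1.5-fold or more, and no p-value was computed. All 46 members are named, with up to 4 genes furthest from 0 in each of the other pathway lists. The members and lists were chosen with earlier results of these data known.

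Alternatives were median centring, quantile normalization, loess, scaling to poly-A or hybridisation controls, a higher floor, a pseudocount of 1, probe set means or medians, no suffixed probe sets, another detection limit or none, and other fold cutoffs. The procedure was also run on simulated data with planted differences, noise scaled to the local spread and 1 probe set per gene. Such a run cannot show how often 1.5-fold differences arise from noise with 1 array in each group. Promoter windows came from RefSeq (GRCm38.p6). Software was matplotlib 3.10.9, statsmodels 0.14.6, scipy 1.17.1, pandas 2.3.3, numpy 2.4.6 and Python 3.11.15.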

Additional observations from a re-analysis of the deposited data

How the results depend on the processing

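No paired analysis was possible because each group held 1 array. Of 529 values of single member genes under 12 alternatives, 484 moved by less than the local spread, 41 moved by more and 4 called genes changed sign, all 4 under poly-A scaling: Rbl2 (-0.13), Lin37 (-0.069), Cdkn2b (-0.079) and Cdkn3 (-0.043). Scaling to the poly-A controls left 29 members at least 1.5-fold lower and 0 higher, where 58.7% of all detected genes were lower and 2.88% higher. Hybridisation scaling left 17 lower and 1 higher, where 23.4% of all were lower and 8.97% higher. Both subtract a constant from each ratio, so the gap between the members' median and that of all genes stayed at -0.30. Under poly-A scaling the medians were -1.001 for the members, -1.23 for G1/S cyclins and CDKs, -0.99 for S to M cyclins and CDK1, -0.50 for E2F activators, -0.36 for E2F repressors, -1.04 for the RB family, -1.001 for MuvB with B-Myb, -0.41 for CDK inhibitors with cyclin G2, -1.20 for phosphatases and Wee1, -0.70 for Skp2 and the CKS adaptors, -0.98 for DREAM components, -0.95 for E2F targets, -0.80 for mitotic targets, -0.79 for other cyclins, CDKs and inhibitors, and -0.73 for further regulators. The E2F repressor median was -0.58 with the mean over detected probe sets and also with the median over all of them, where the dim probe set of E2f6 enters. Without suffixed probe sets, 39 members were left, 3 of them higher, where 15.2% of all detected genes were. The phosphatase and Wee1 median was then 0.34 over 3 genes. Detection at the pooled 75th percentile left 3 genes in the MuvB and B-Myb group, with a median of 0.48. A 2-fold cutoff gave 3 lower and 0 higher, beside 5.47% and 5.72% of all detected genes. A 3-fold cutoff gave 2 lower and 0 higher, beside 1.87% and 1.68%. Low signal limits E2f2, Lin52 and the second probe set of E2f6.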
